A study of Mus musculus with 2 samples.

Results

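The cells described here were tumor monocytes that carried Vcan, Chil3 or Hp mRNA together with abundant mRNA of the chemokine genes Cxcl9 and Cxcl10. They were selected on measured values, gated directly from the deposited unique molecular identifier (UMI) counts, in which each UMI stands for 1 captured mRNA molecule. A cell was taken if under 10% of its UMIs came from mitochondrial genes and if it held at least 1 UMI of the myeloid growth factor receptor gene Csf1r, at least 3 of Vcan, Chil3 and Hp together, and at least 5 of Cxcl9 and Cxcl10 together. It could hold no more than 2 UMIs of C1qa, C1qb and C1qc (macrophages), no more than 2 of Ace, Adgre4, Treml4 and Ceacam1 (nonclassical monocytes) and no more than 1 of Ccl24 and Mgl2. Neutrophil genes S100a8 and S100a9 had to stay under 0.2%, and the hypoxia genes Vegfa, Hilpda, Ero1l, Egln3 and Bnip3 under 0.15%, of the UMIs of the cell. The rule found 153 of 12078 kept cells, 63 in the Irg1+/+ library and 90 in the library labelled Irg1-/-. The 12078 kept cells came from 12304 cells in the files.

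Both libraries held Cd45+ cells, that is, blood-derived cells, sorted from B16-F10 tumors. B16-F10 is a melanoma line that arose in C57BL/6 mice. Per the methods of the study, 200000 tumor cells in buffer were injected under the skin of mice that were either Irg1+/+ or Irg1-/-, on the C57BL/6J background, and the tumors were taken on day 10. Sex and age are given there for the subcutaneous tumor models in general, as female and 8 to 10 weeks. Irg1, listed as Acod1 in the files, is deleted in the cells of Irg1-/- mice but not in the injected tumor cells. Tumors of 3 mice of a genotype were pooled before sorting and captured as 1 library, so that neither genotype had a replicate and no test between the genotypes could be made. The kept cells held 43411111 UMIs in the Irg1+/+ library and 36277667 in the other, with a median of 4645.5 and 4703 UMIs per cell. Every interval given is a 95% interval that covers counting error only, since neither UMIs nor cells of 1 library are replicates of a genotype.

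Interferons are secreted proteins that act through receptors and the JAK kinases on STAT transcription factors. Type I interferons, sensed through Ifnar1 and Ifnar2, act on the interferon-stimulated response element (ISRE) and drive antiviral genes such as the Ifit family and Rsad2. Interferon-gamma, made by T cells and natural killer (NK) cells, is sensed through Ifngr1 and Ifngr2, acts on gamma-activated sites (GAS) and induces Irf1, the guanylate-binding proteins and the immunity-related GTPases. Cxcl9 and Cxcl10 encode chemokines that draw Cxcr3-bearing T cells and NK cells. Cxcl9 is mainly a target of interferon-gamma, whereas Cxcl10 is also induced by type I interferon and by NF-kB. Vcan encodes versican, a proteoglycan made by classical monocytes, which leave the blood and enter tumors.

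The stretches before the start of both defining chemokine genes are shown because they are the sequences through which interferons are known to act on them. They were read from RefSeq on build GRCm38.p6, 5′ to 3′ on the strand of the gene, and each covers the 250 bases before the start. Capitals mark the core of the ISRE, searched as GAAA NN GAAA, where N is any base, on both strands. Cxcl9 lies at chr5:92321347-92328079 and Cxcl10 at chr5:92346638-92348889, both on the minus strand.
Cxcl9, chr5:92328080-92328329, minus strand: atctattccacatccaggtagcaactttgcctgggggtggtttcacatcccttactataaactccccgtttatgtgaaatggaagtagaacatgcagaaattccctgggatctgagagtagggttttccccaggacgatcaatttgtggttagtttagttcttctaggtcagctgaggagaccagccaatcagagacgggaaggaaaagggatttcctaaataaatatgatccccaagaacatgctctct
Cxcl10, chr5:92348890-92349139, minus strand: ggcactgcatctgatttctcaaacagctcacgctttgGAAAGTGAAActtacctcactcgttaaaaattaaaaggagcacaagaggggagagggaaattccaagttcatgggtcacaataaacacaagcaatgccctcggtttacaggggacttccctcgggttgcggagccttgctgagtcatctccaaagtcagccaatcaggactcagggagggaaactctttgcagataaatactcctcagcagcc

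The Cxcl10 window held 1 such core, from 213 to 204 bases before the start, and the Cxcl9 window held none. Neither window held the GAS core, searched as TTCNNNGAA, which reads the same pattern on both strands. No match says only that these letters are not in the window. Shorter stretches of other genes that were high in the gated cells are shown around the match nearest to the start, read on the strand that carries GAAA NN GAAA, with each match in capitals. Those of Irgm1 and Socs1 hold 2 matches that overlap. Starts are those of RefSeq. GENCODE begins Gbp5 2956 bases, Irgm1 263 bases and Gbp2 61 bases further upstream, so that the stretches of Gbp5 and Irgm1 lie within the gene as GENCODE gives it, and that of Gbp2 with 22 of its 30 bases. Gbp2 and Gbp5 encode guanylate-binding proteins, Calhm6 a pore protein of activated myeloid cells, Ifit1 and Rsad2 antiviral effectors, Irgm1 an immunity-related GTPase, and Socs1 a feedback inhibitor of the JAK kinases.
Gbp2, chr3:142620594-142620623, minus strand: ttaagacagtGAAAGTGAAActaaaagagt
Gbp5, chr3:142496759-142496788, minus strand: tctctaaactGAAATTGAAActacacaagt
Calhm6, chr10:34128017-34128046, minus strand: tgaaaaaaaaGAAAGTGAAAcccggaaggg
Irgm1, chr11:48871425-48871454, minus strand: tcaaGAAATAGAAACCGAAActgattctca
Ifit1, chr19:34640794-34640823, minus strand: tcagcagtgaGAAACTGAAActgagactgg
Rsad2, chr12:26456553-26456582, plus strand: tctgttttctGAAAATGAAAgttggaccag
Socs1, chr16:10785594-10785623, minus strand: gccgGAAAGAGAAACCGAAAgcgggggtgg

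Gbp2, Calhm6 and Cxcl10 held the same 10 letters, GAAAGTGAAA, in these stretches. The gene for Gbp2 spans chr3:142620602-142638008 on the plus strand, Calhm6 spans chr10:34126067-34127984 on the minus strand, and Rsad2 is transcribed from the minus strand of chromosome 12.

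Acod1, the gene deleted in 1 of the genotypes, encodes the mitochondrial enzyme that makes itaconate, and lies at chr14:103046977-103056573 on the plus strand. Over all kept cells it was at 87.8 CPM (UMIs of the gene per 1000000 UMIs of the summed cells, mitochondrial genes left out) in the Irg1+/+ library and at 107.8 in the library labelled Irg1-/-, a log2 ratio of 0.30. In the gated cells it was at 397 CPM (332 to 472) and 259 (216 to 308), and in Vcan monocytes below the chemokine threshold at 46.6 and 54.1. The gene was therefore read in both libraries and was not lower over the whole of the library labelled Irg1-/-. Which part of the gene was deleted is not given in the sources used here, and a tag at the 3′ end outside the deleted part would check nothing. The genotypes are used as labels throughout, and each direction between the libraries rests on them.

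Cells of the rule were 1.003% of kept cells in the Irg1+/+ library (0.771 to 1.28) and 1.553% in the library labelled Irg1-/- (1.25 to 1.91). The difference was 0.551 percentage points (0.151 to 0.965). Among all Vcan monocytes that passed the other clauses, 214 and 257 cells, they were 29.4% (23.4 to 36.0) and 35.0% (29.2 to 41.2), a difference of 5.58 points whose counting interval, from -2.93 to 13.9, held 0. Vcan monocytes as a whole, with high or low chemokine counts, were themselves 3.41% and 4.44% of kept cells, 1.03 points apart (0.338 to 1.73). The gated cells were deeper (a median of 5157 and 5553 UMIs) than the 151 and 167 Vcan monocytes with 0 to 4 chemokine UMIs, called low-Cxcl monocytes from here on (4262 and 4370). With the gate as deposited and each cell then thinned to 3000 UMIs, 42 of 181 (23.2%) and 66 of 216 (30.6%) Vcan monocytes still held at least 5 chemokine UMIs, and 33 and 41 shallower cells were left out.

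The threshold cut a continuous range. In the Irg1+/+ library 8 Vcan monocytes had 4 chemokine UMIs, just outside, and 5 had exactly 5, just inside. In the other library these numbers were 4 and 11. The gated cells had a median of 18 and 18.5 chemokine UMIs and at most 120 and 173. They were not the main source of these mRNAs among the kept Cd45+ cells. They held 4.03% and 6.03% of the Cxcl9 and Cxcl10 UMIs of kept cells. Macrophages with at least 10 C1q UMIs and at least 5 chemokine UMIs, 475 and 535 cells, held 40.9% and 39.0%. Tumor cells outside the sort were not measured. The C1q limit was the clause that most often kept out an otherwise fitting cell (188 and 267 cells), followed by the chemokine threshold itself (151 and 167), the limit on Vcan, Chil3 and Hp (51 and 95) and that on nonclassical genes (22 and 14).

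RNA of other cells was measured in the same gate. T, NK and B cells without Csf1r held at least 5 chemokine UMIs in 4.80% and 4.04% of cells, and at least 1 in 45.8% and 47.3%. Their median depth was 3408 and 2820 UMIs, and the part of their own mRNA in these counts was not tested. Vcan monocytes held at least 1 in 65.9% and 73.2%. The share of gated cells with at least 2 UMIs of 10 T, NK and B cell genes was 36 of 63 and 59 of 90, beside 69 of 151 and 88 of 167 low-Cxcl monocytes, which were shallower. All 10 genes of the T cell list had a UMI in the gated cells. Their summed level was 566.5 and 335.6 CPM, led by Trac and by Trbc2, beside 613.7 and 739.4 in low-Cxcl monocytes and 6469 and 4909 in the lymphocytes. The 8 NK cell genes summed to 314 and 370 CPM, led by Gzmb and by Gzma, beside 407.1 and 601.5. Of the 5 B cell genes Cd79a and Ms4a1 were at 0, and of the 8 neutrophil genes Ly6g was. The 6 melanoma genes were at 197 and 38.4 CPM in the gated cells, led by Dct with Tyr at 0, and at 153.8 and 33.8 in low-Cxcl monocytes, so the library difference in tumor RNA was seen in both. No cell barcode was shared by gated cells of the 2 libraries, and 36 were shared by the files as a whole. The doublet caller marked 0 and 2 cells, too few for its calls to be used, and doublets were left in the gate. The part of doublets and of free RNA in the results was not tested.

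The markers given for these cells were higher in the gate than in low-Cxcl monocytes in both libraries, apart from the monocyte gene Vcan. Gbp2, a guanylate-binding protein that attacks the membranes of intracellular pathogens, was at 3645 CPM (3440 to 3859) against 1001 in the Irg1+/+ library and at 4390 (4207 to 4578) against 1073 in the library labelled Irg1-/-. Per cell, the lowest, median and highest values were 0, 26.9 and 154 Gbp2 UMIs per 10000 UMIs in 63 gated cells, and 0, 36.0 and 179 in the 90 of the other library. Low-Cxcl monocytes had medians of 4.67 and 5.39 and reached 78.7 and 116, so single cells overlapped although 93.7% and 98.9% of the gated cells had a Gbp2 UMI, beside 72.2% and 80.8%. Lymphocytes read Gbp2 at 326.7 and 356.8 CPM. Gbp5, which takes part in inflammasome assembly, was at 526.5 against 99.4 CPM and at 519.6 against 131, log2 ratios of 2.40 (1.98 to 2.84) and 1.98 (1.64 to 2.34). Calhm6 was at 259 (206 to 320) against 65.3 CPM and at 374 (322 to 432) against 103. Vcan itself was at 985 against 1307 CPM and at 1237 against 1360. The markers had been picked for these cells with the data in view, so that their levels describe the gate and support nothing.

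Over 3709 genes with at least 100 UMIs in the summed cells, 54 were at least 2-fold higher in the gated cells in both libraries, or 1.46% of genes tested, and 9 were at least 2-fold lower in both (0.243%). The defining Cxcl9 and Cxcl10 are among the 54. Cxcl9 was at 2565 against 121 CPM and at 3965 against 160, and Cxcl10 at 2635 against 99.4 and at 2145 against 73.0, as the rule fixed. A gene could pass the limit on UMIs through the gated cells alone, and a lower gene through the low-Cxcl monocytes alone. The median log2 ratio of all 3709 genes was -0.068 and -0.081.

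Guanylate-binding proteins are large GTPases that coat and break open vacuoles of pathogens. Of 11 genes in the list 10 were in the files and 6 passed the limit on UMIs, of which 5 (Gbp2, Gbp3, Gbp4, Gbp5 and Gbp7) were at least 2-fold higher in both libraries, against a background of 1.46% of genes. The median log2 ratio of the 6 was 1.65 and 1.56. Gbp4 was at 271 against 71.5 CPM and at 313 against 97.3, and Gbp7 at 708 against 261 and at 744 against 289. Gbp9, the sixth, had log2 ratios of 1.21 and 0.90. Summed over the list, the level was 5822 against 1715 CPM in the Irg1+/+ library and 6794 against 1959 in the other, and nonclassical monocytes stood at 2164 and 1959, near the low-Cxcl monocytes.

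Immunity-related GTPases act beside the guanylate-binding proteins at the same vacuoles. Of 10 listed genes 9 were in the files and 6 passed the limit. All 6 were at least 2-fold higher in both libraries (medians of 1.51 and 1.34), beside 1.46% of all genes tested. With the mean of the CPM of each cell, Irgm2 was under 2-fold, at 0.56 and 0.88. Ifi47 had the most UMIs of the list and was at 1121 against 381 CPM and at 1614 against 639. Irgm1, a regulator of the family, was at 767 against 277 and at 821 against 324, and Igtp at 323 against 155 and at 501 against 210. Iigp1, which is loaded onto the vacuole membrane, was at 197 CPM (152 to 252) against 35.7 in the Irg1+/+ library and at 817 (739 to 901) against 110 in the library labelled Irg1-/-. The log2 ratios were 2.44 (1.76 to 3.22) and 2.89 (2.55 to 3.26), and an Iigp1 UMI was found in 31.8% and 65.6% of gated cells beside 6.62% and 23.4% of low-Cxcl monocytes. Tgtp2 was at 160 against 45.1 and at 174 against 48.7, but its reads cannot be told from those of its near-identical neighbor Tgtp1 with certainty. Without cells that held 2 or more UMIs of the 10 lymphocyte genes, which left 27 and 31 gated cells, 4 of the 6 genes were still tested and 3 were at least 2-fold higher in both libraries (medians over the 4 of 1.27 and 1.19).

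Antiviral genes induced by type I interferon were higher as a group in both libraries. Of 46 listed genes 44 were in the files and 41 were tested. In the gate 41 of 41 were higher in the Irg1+/+ library and 40 of 41 in the library labelled Irg1-/-. Of all 3709 genes 1586 and 1551 were. At least 2-fold higher in both libraries were 14 of the 41, beside 1.46% of all genes tested. The medians of the 41 were 1.18 and 0.75. Ifit2, which binds viral RNA, was at 480 against 69.9 CPM and at 522 against 100, and Ifit1 at 268 against 54.4 and at 317 against 68.9. Ifit3 was at 225 against 31.1 and at 443 against 146, a gene whose reads can be split with its copy Ifit3b. Isg15, a ubiquitin-like modifier, was at 668 against 269 and at 1003 against 489. In the library labelled Irg1-/- Isg15 fell under 2-fold without the cell with most of its UMIs, at a log2 ratio of 0.95. With the mean of the CPM of each cell it was at 0.92 there. Not all of the group differed by this much, and Ifitm3, which blocks virus entry and had the most UMIs of the list, was at 3513 against 2996 and at 4475 against 4223. With a threshold of 3 in place of 5 chemokine UMIs, 9 genes of the group were at least 2-fold higher in both libraries, and 5 of 28 still tested were without cells with lymphocyte genes (medians over the 28 of 0.68 and 0.58).

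Rsad2 encodes viperin, an enzyme that makes a chain-terminating nucleotide against viral polymerases, and its neighbor Cmpk2 encodes a nucleotide kinase. Rsad2 was at 1475 CPM (1346 to 1613) against 126 in the Irg1+/+ library and at 649 (580 to 724) against 197 in the other, log2 ratios of 3.54 (3.21 to 3.91) and 1.72 (1.43 to 2.01). Its median over gated cells was 0 in both libraries, and the highest cell had 246 and 53.8 UMIs per 10000. In the Irg1+/+ library 1 cell held 195 of 479 Rsad2 UMIs, or 40.7%, and without it the log2 ratio there was 3.08. In the other library the highest cell held 27 UMIs, or 8.41%. An Rsad2 UMI was found in 47.6% and 46.7% of the gated cells beside 29.1% and 31.7% of low-Cxcl monocytes. Cmpk2 was at 283 against 42.0 CPM and at 202 against 71.6.

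**Figure D1:**
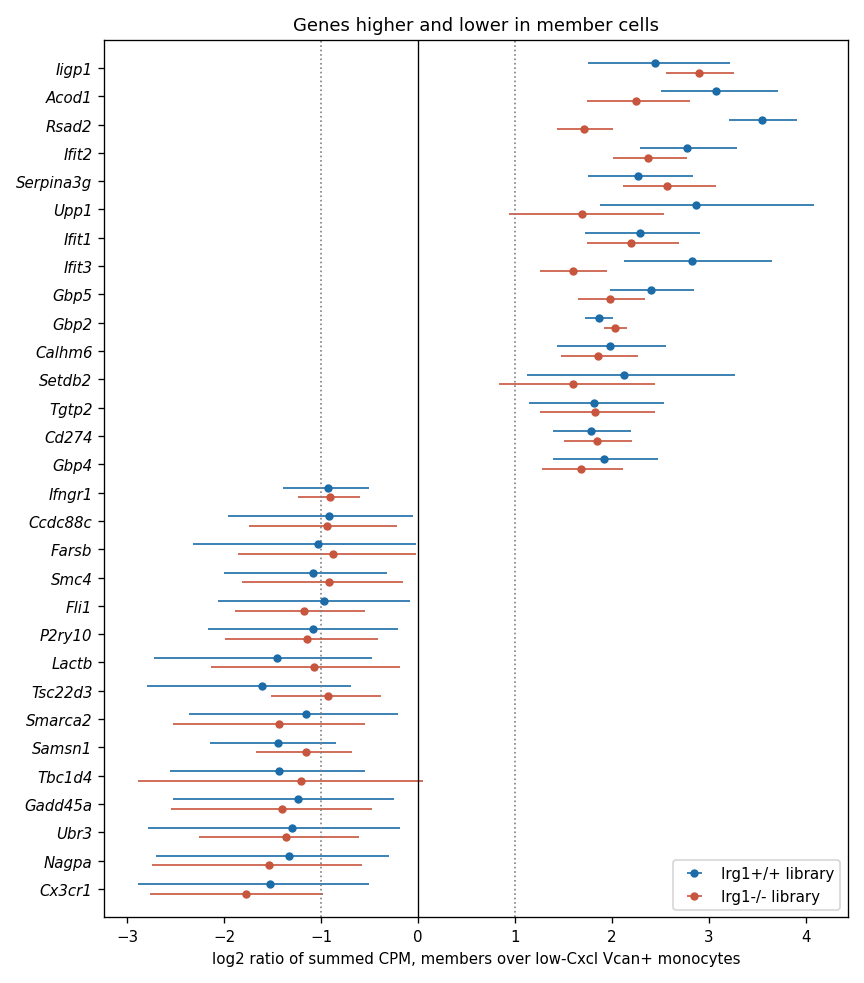
Log2 ratio of the gated (member) cells over low-Cxcl Vcan monocytes for the 15 highest and 15 lowest genes, genes of the rule left out, with the 95% counting interval, in each library; dotted lines mark 2-fold. Rsad2 stood at 3.54 and 1.72 and Cx3cr1 at -1.53 and -1.78.

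Of the receptors, kinases and transcription factors of the interferon pathway 19 of 21 genes were tested. At least 2-fold higher in both libraries were 3, Irf8, Socs1 and Batf2, beside 1.46% of all genes tested. The median of the 19 was 0.28 and 0.27. Irf8, a myeloid transcription factor that acts with Irf1, was at 804 against 337 CPM and at 801 against 365. Socs1 was at 136 against 32.6 and at 206 against 85.2, and Batf2, which pairs with Irf1 in interferon-gamma-treated macrophages, at 61.6 against 20.2 and at 127 against 25.7. Irf1 was at 1099 against 743 and at 1314 against 949, less than 2-fold. The receptor chain Ifngr1 stood in the opposite direction, at 172 against 331 CPM and at 224 against 423, with log2 ratios of -0.93 (-1.39 to -0.51) and -0.91 (-1.24 to -0.60). Lymphocytes read Ifngr1 at 946 and 1025 CPM, and the part of lymphocyte RNA in this difference was not tested. Ifngr2 was at 209 against 190 and at 166 against 191 CPM.

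Among genes that meet T cells, Cd274, which encodes the checkpoint ligand PD-L1 and lies at chr19:29367455-29388095 on the plus strand, was at 440 against 127 CPM in the Irg1+/+ library and at 477 against 133 in the library labelled Irg1-/-. The log2 ratios were 1.78 (1.39 to 2.20) and 1.84, and 73.0% and 75.6% of the gated cells had a Cd274 UMI beside 35.1% and 27.5% of low-Cxcl monocytes. Of 17 listed genes 11 were tested, with medians over the 11 of 0.91 and 1.05. At least 2-fold higher in both were 4, Cd274, Cd40, Fas and Calhm6, beside 1.46% of all genes tested. Cd40, the receptor for T cell help, was at 169 against 55.9 and at 188 against 75.7 CPM, and the death receptor gene Fas at 64.7 against 15.5 and at 95.03 against 36.5. The costimulatory gene Cd86 had log2 ratios of 0.30 and 1.05.

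Most MHC class I presentation genes were somewhat higher in the gate, and MHC class II genes were near even over the gate as a whole. All 23 genes of the MHC class I list were tested and none was 2-fold higher in both libraries. The medians were 0.21 and 0.39, and 18 and 20 of the 23 were higher, among them the peptide transporter Tap1 (431 against 250 and 495 against 315 CPM) and the immunoproteasome subunit Psmb9 (179 against 101 and 267 against 123). MHC class II genes, which classical interferon-gamma responses also include, had medians of -0.18 and 0.02 over 8 of 12 genes tested, with 0 called. H2-Ab1 was at 2765 against 3351 CPM and at 3253 against 3416, and the invariant chain gene Cd74 at 3088 against 3591 and at 4076 against 3894.

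Beside the defining chemokines, 13 of 15 tested chemokine genes were not 2-fold higher in both libraries. Ccl4 was at 1755 against 819 CPM in the Irg1+/+ library and at 1033 against 827 in the other. Ccl12 was at 357 against 207 and at 190 against 112. Of 14 tested cytokine and NF-kB feedback genes 1 was called, beside 1.46% of all genes tested. It was Il18bp, which encodes the decoy of interleukin 18 (1.26 and 1.34). Il1b was at 3057 against 1899 and at 2570 against 2511 CPM, and its antagonist Il1rn at 1856 against 1114 and at 1915 against 807.

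In the nitric oxide and itaconate list 2 of 8 tested genes were called, beside 1.46% of all genes tested. They were Acod1 and Sod2, the mitochondrial superoxide dismutase (499 against 221 and 504 against 177 CPM). Acod1 had log2 ratios of 3.07 (2.51 to 3.72) and 2.25 (1.74 to 2.81) and a UMI in 38 of 63 and 45 of 90 gated cells, beside 9.93% and 16.2% of low-Cxcl monocytes. Nos2, the inducible nitric oxide synthase, was at 61.6 against 12.4 and at 48.5 against 9.46 CPM but did not reach the limit on UMIs, and 1 cell held 55.0% and 37.5% of its UMIs. Other genes named for their ratio were Serpina3g, a protease inhibitor with near copies (317 against 65.3 and 380 against 63.5), Upp1, which splits uridine (117 against 15.5 and 93.0 against 28.4), and Setdb2, a histone methyltransferase relative (83.1 against 18.6 and 86.9 against 28.4). Nampt, which makes a precursor of NAD, was at 1336 against 489 and at 1258 against 541, and the receptor gene Hcar2 at 200 against 85.5 and at 202 against 89.2. None of the 13 inflammasome genes, 5 Fc receptor genes or 8 Toll-like receptor genes tested was called.

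Genes of classical monocyte identity kept near-even levels. Of 22 tested genes of that list 7 and 7 were higher in the gate, none was called, and the medians were -0.16 and -0.12. Ccr2, the receptor that brings monocytes out of the marrow, was at 1746 against 1937 and at 1721 against 2133 CPM. Ly6c2 was at 2608 against 2040 and at 4323 against 4474. The macrophage list had medians of 0.05 and -0.21 over 18 genes, and the immediate early and heat shock genes that mark handling stress had medians of 0.07 and 0.08 over 14.

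Of the 9 genes at least 2-fold lower in both libraries (0.243%), Cx3cr1, the fractalkine receptor that increases as classical monocytes become nonclassical, was at 24.6 against 74.6 and at 28.3 against 100 CPM. Samsn1, an adaptor of lymphocytes and mast cells, was at 77.0 against 213 and at 93.0 against 208, and P2ry10 at 36.9 against 80.8 and at 38.4 against 86.5. Lymphocytes read Samsn1 at 437 and 360 and P2ry10 at 693 and 741 CPM, and the part of lymphocyte RNA in these values was not tested. Gadd45a, a stress gene, was at 27.7 against 68.4 and at 22.2 against 60.8. The others were Nagpa, Ubr3, Tbc1d4, Smarca2 and Lactb. The number of lower genes and the direction of P2ry10, Tbc1d4 and Lactb in the Irg1+/+ library depended on the chemokine threshold, since with at least 3 UMIs 1 gene was called and their log2 ratios there were 0.63, 1.09 and 0.17. Smarca2 was at 0.073 there without cells that held lymphocyte genes.

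A promoter window of 250 bases could be matched for 47 of the 54 higher genes, with chromosome 18 left out. The core GAAA NN GAAA stood in 21 of the 47 (44.7%), beside 146 of 2992 genes tested (4.88%) and 936 of 27025 genes with a window (3.46%). TTCNNNGAA stood in 10 of 47 (21.3%), 236 of 2992 (7.89%) and 2197 of 27025 (8.13%). Of the 9 lower genes 1 held the first core and 0 the second. Windows are not independent, since Ifi203, Ifi205, Ifi211 and Mndal, and likewise Igtp and Irgm2, are copies with near-identical stretches. A match is a description of the letters and was not tested as a binding site, and Cd274 and Acod1, though high in the gate, had neither core in their window.

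Levels of the guanylate-binding proteins were ordered by the number of chemokine UMIs also beyond the threshold. Over Vcan monocytes with 0, 1 to 2, 3 to 4, 5 to 9, 10 to 19 and 20 or more chemokine UMIs, there were 73, 60, 18, 19, 13 and 31 cells in the Irg1+/+ library and 69, 79, 19, 29, 17 and 44 in the other. The summed guanylate-binding proteins were at 1875, 1655, 1419, 3831, 4262 and 7569 CPM in the former and at 1525, 1908, 3454, 5098, 6681 and 7846 in the latter. Below the threshold the Irg1+/+ library had lower levels with more chemokine UMIs, whereas in the other the level was higher in each class than in the one before. The class of 3 to 4 UMIs held 18 and 19 cells. Immunity-related GTPases were at 851 CPM in the first class and at 1782, 2009 and 3573 in the last 3 of the Irg1+/+ library, and at 1419, 3483, 3310 and 5046 in the other. Type I antiviral genes were higher from 5 UMIs on but not in order of the classes, at 9815 in the first class and 18390, 13610 and 24090 in the last 3 of the Irg1+/+ library, and at 15720, 23720, 26880 and 23820 in the other. MHC class II genes showed no such order, at 16150 and 16060 CPM and at 17990 and 18570 in the same classes. Cd274 was at 120, 122, 162, 213, 487 and 550 CPM and at 120, 123, 206, 375, 307 and 593. A deep cell reaches a class more easily, so the classes also differ in depth.

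**Figure D2:**
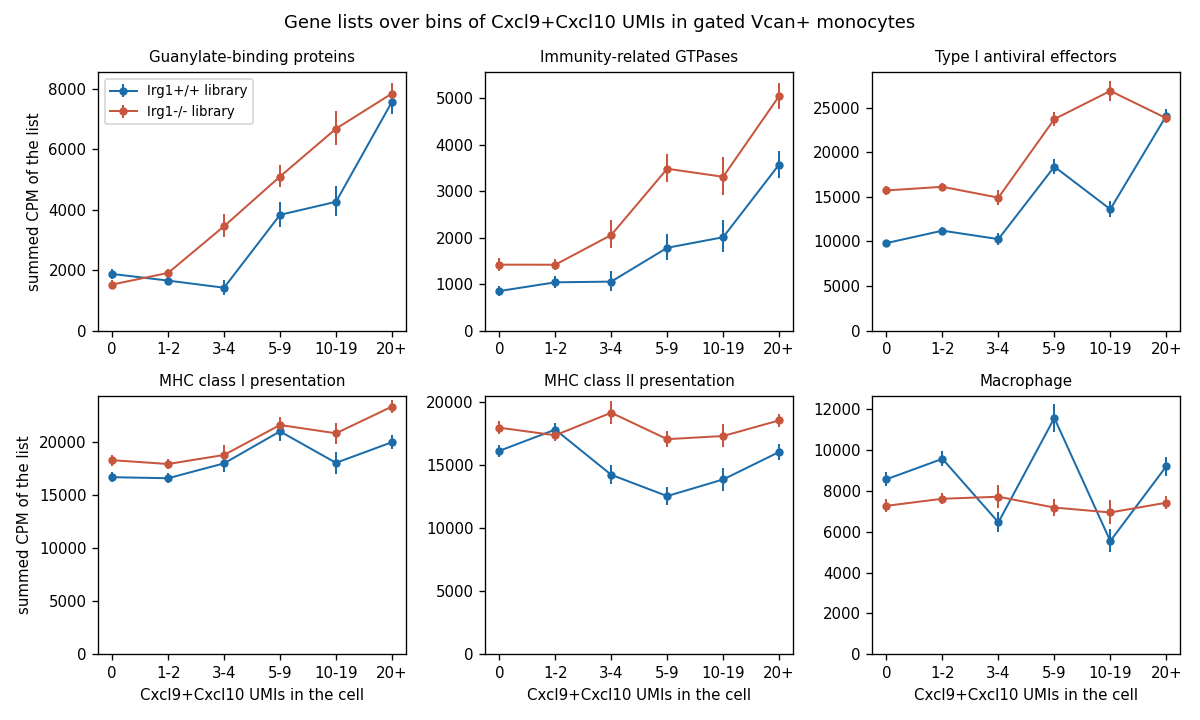
Summed CPM of 6 gene lists against the number of Cxcl9 and Cxcl10 UMIs of Vcan monocytes, by library, with 95% counting intervals. Guanylate-binding proteins went from 1875 to 7569 CPM and from 1525 to 7846 between the first and last class, while MHC class II genes stayed between 12560 and 19180.

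Cxcl9 and Cxcl10 were not always high in the same cell. At least 5 UMIs of Cxcl9 alone were held by 15 and 31 gated cells (23.8% and 34.4%), of Cxcl10 alone by 19 and 23 (30.2% and 25.6%), of each by 24 and 25 (38.1% and 27.8%), and 5 and 11 cells passed on the sum only. The first 3 of these classes are compared here, since the last is small. The classes were set by the chemokine counts, and the other genes were read in them as a description. Gbp2 was at 7221 CPM in Cxcl9-only cells, 1544 in Cxcl10-only cells and 4093 in cells with both in the Irg1+/+ library, and at 5632, 2546 and 5384 in the other. Median Gbp2 levels per 10000 UMIs were in the same order, 65.2, 14.1 and 28.9 in the former and 44.3, 22.6 and 42.2 in the latter. The summed guanylate-binding proteins, which include Gbp2, were at 9301, 3454 and 6769 CPM in these classes of the Irg1+/+ library. In the other library they were at 7769, 5043 and 8392. Gbp5, Iigp1 and the summed immunity-related GTPases did not share the order of Gbp2. Iigp1 was at 186, 103 and 301 CPM in the Irg1+/+ library and at 658, 681 and 1230 in the other. Of the 3 classes, Gbp5 was lowest in Cxcl9-only cells, at 338, 543 and 681 CPM in Cxcl9-only cells, Cxcl10-only cells and cells with both of the Irg1+/+ library and at 338, 568 and 875 in the other, while the cells that passed on the sum only had 215 and 123 CPM. The summed immunity-related GTPases were in the same order, at 1826, 2845 and 3515 CPM and at 3097, 4394 and 6109, with 1045 and 3048 in the cells that passed on the sum only.

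**Figure D3:**
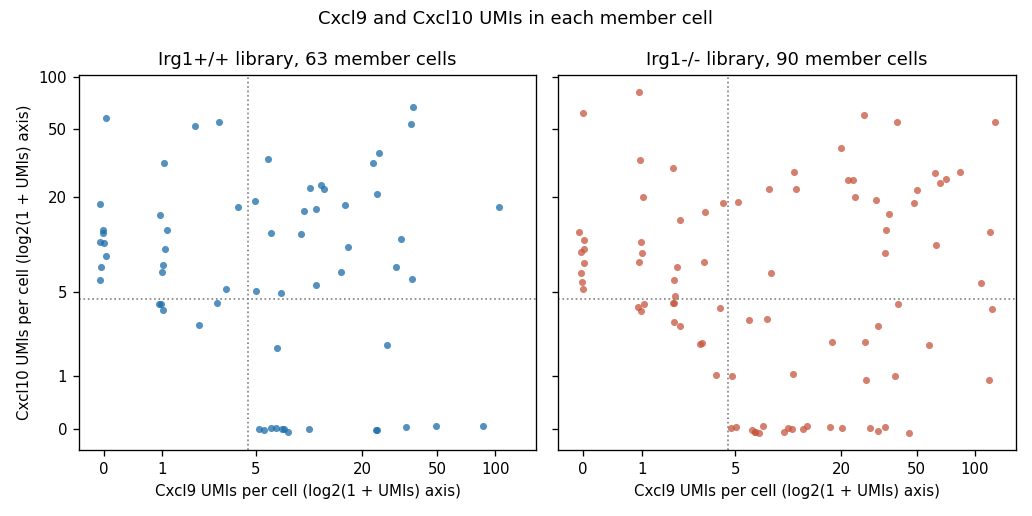
Cxcl9 against Cxcl10 UMIs in each gated (member) cell, on log2(1 + UMIs) axes, with the Irg1+/+ library on the left and the library labelled Irg1-/- on the right; points are slightly offset so that equal values can be seen, and dotted lines mark the limit of 5 UMIs. The 15 and 31 Cxcl9-only cells lie at the lower right, the 19 and 23 Cxcl10-only cells at the upper left and the 24 and 25 cells with both at the upper right.

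Of the 3 classes, Cxcl10-only cells had the highest summed level of antiviral genes. Their list summed to 12970, 24060 and 20200 CPM in the same order of classes in the Irg1+/+ library and to 20000, 30130 and 24060 in the other. Rsad2 was at 135 CPM in Cxcl9-only cells, 3257 in Cxcl10-only cells and 776 in cells with both in the Irg1+/+ library, where the cell with 195 UMIs was of the Cxcl10-only class and left 1432 CPM without it. In the other library Rsad2 was at 519, 1224 and 434. An Rsad2 UMI was found in 5 of 15, 10 of 19 and 13 of 24 cells and in 13 of 31, 15 of 23 and 9 of 25. Ifit2 was at 50.7, 927 and 230 CPM, and at 296, 819 and 590, with 1 Cxcl9-only cell of the Irg1+/+ library holding all 3 of its UMIs there and 1 Cxcl10-only cell 50 of 99. Ifit3 was at 135, 328 and 174 CPM and at 278, 697 and 477. Isg15 differed less between the classes, at 643, 665 and 633 CPM and at 960, 1119 and 889.

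Cells with both chemokines were highest in Irf8, at 1148 CPM beside 626 and 711 in Cxcl9-only and Cxcl10-only cells, and at 1522 beside 646 and 446 in the other library. Cd274 was at 649 beside 288 and 346 and at 697 beside 411 and 438. MHC class II genes summed to 15810, 14990 and 14420 CPM in Cxcl9-only cells, Cxcl10-only cells and cells with both in the Irg1+/+ library. In the other library they were at 22770, 11080 and 18670 CPM. Low-Cxcl monocytes were at 16550 and 17830. The Nos2 level of Cxcl9-only cells, 186 CPM in the Irg1+/+ library, came from 11 UMIs of 1 cell, and that in the other library, 115 CPM, from 4 of 31 cells. With 15 to 31 cells a class from 1 library of each genotype, single cells weigh heavily in these values, and no difference between the classes was tested.

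**Figure D4:**
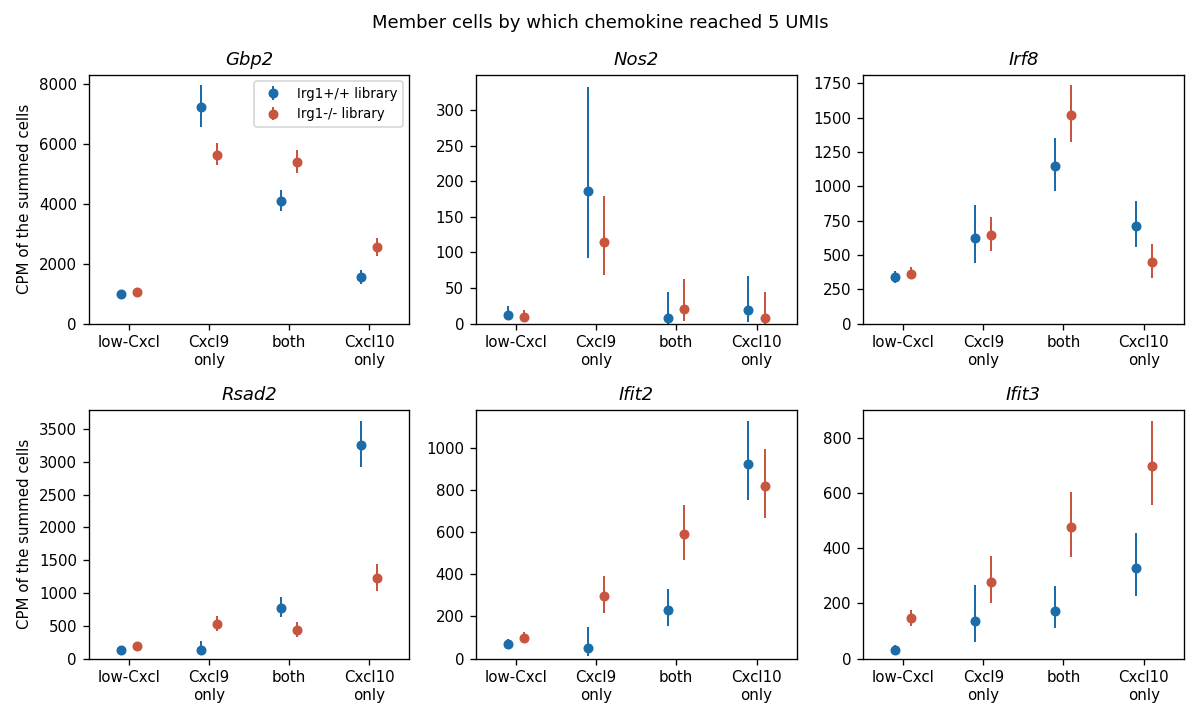
CPM of 6 genes in low-Cxcl Vcan monocytes and in gated cells split into those with at least 5 UMIs of Cxcl9 only, of Cxcl10 only and of both, by library, with 95% counting intervals. Gbp2 was at 7221 and 5632 CPM in Cxcl9-only cells and at 1544 and 2546 in Cxcl10-only cells, and Rsad2 was highest in Cxcl10-only cells in both libraries.

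The same contrast was made in macrophages with at least 10 C1q UMIs, 475 and 535 cells with high against 449 and 365 with low chemokine counts. These cells are deeper (medians of 17087 and 14823 UMIs in the high cells), so that 5 UMIs is a lower bar there. Of 10189 genes tested 82 were at least 2-fold higher in both libraries (0.805%). Of the 52 higher genes of the monocyte gate outside the rule, 7 (13.5%) met the same criterion in macrophages, where they were 8.75% of 80 such genes. They were Acod1, Batf2, Calhm6, Cnn3, Gbp2, Gbp5 and Iigp1. Gbp2 had log2 ratios of 1.44 and 1.31 there, and Cd274 0.59 and 0.98. Type I antiviral genes had medians of 0.40 and -0.02, with 0 of 43 called, beside 1.18 and 0.75 in the monocyte gate. Setdb2, at 2.12 and 1.60 in the monocytes, was at -0.11 and -0.20 in macrophages. Markers of other cells also moved with the macrophage contrast. Of 6 melanoma genes 4 were at least 2-fold higher in both libraries, with a summed level of 1560 against 734 and of 460 against 225 CPM. The 10 T cell genes summed to 1193 against 2246 and to 1339 against 1559 CPM, and the 8 NK cell genes to 841 against 1903 and to 1491 against 1904. Their part in these results was not tested. Whether the ratios of the 2 gates differ was not tested, and the difference in depth between the 2 gates cannot be told apart from them.

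Between the libraries, the gated cells of the library labelled Irg1-/- were at least 2-fold higher in 9 of 1630 genes (0.552%) and at least 2-fold lower in 11 (0.675%). The median log2 ratio of the 1630 genes was 0.0014. Iigp1 stood first among the higher genes, at 197 against 817 CPM with a log2 ratio of 2.04 (1.67 to 2.46), and low-Cxcl monocytes had 1.59 (0.93 to 2.35). The other higher genes were Fpr2, a receptor for formyl peptides (64.7 against 182 CPM), Cd177 (67.7 against 166), the growth inhibitor Btg2 (400 against 944), the immediate early gene Fosb (249 against 518), glutamine synthetase Glul (105 against 229), the exonuclease Isg20 (95.4 against 208), Il18 (77.0 against 158) and Ube2l6, an enzyme that attaches Isg15 (145 against 293). In low-Cxcl monocytes Fpr2 had a log2 ratio of 0.30 and Cd177 of -0.12.

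Spp1, osteopontin, was 1370 CPM in gated cells of the Irg1+/+ library and 123 in the other, and 727 and 68.9 in low-Cxcl monocytes, log2 ratios of -3.46 (-3.88 to -3.08) and -3.39 (-3.85 to -2.98). One cell of the Irg1+/+ library held 209 of 445 UMIs (47.0%), without which the ratio in the gate was -2.98, and over all kept cells it was -1.33. The chemokine genes Ccl7 (1041 against 352 CPM), Cxcl2 (2235 against 975) and Ccl3 (742 against 346) were lower in the library labelled Irg1-/-, with log2 ratios of -1.56, -1.20 and -1.10 in the gate and of -1.09, -0.90 and -0.46 in low-Cxcl monocytes. One cell held 62 Ccl3 UMIs (25.7%) of the Irg1+/+ gate, without which the ratio was -0.78. With the mean of the CPM of each cell, Ccl3 was at -0.89 and Cxcl2 at -0.83, and 9 of the 19 named genes past 2-fold between the libraries were then under it. Of 12 chemokine genes tested between the libraries 2 were higher in the library labelled Irg1-/-, Cxcl9 and Ccl6. Cxcl9 and Cxcl10 are among the 12, and since the gate was chosen on their counts, their levels of 2565 against 3965 and of 2635 against 2145 CPM are a description of it. The chemokine receptor gene for both, Cxcr3, was at 0 in the gated cells.

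Among all 1630 genes tested in the gate, 821 had a higher level in the library labelled Irg1-/-. All 6 immunity-related GTPases had higher levels there, with a median log2 ratio of 0.58 in the gate and 0.59 in low-Cxcl monocytes, and 30 of 35 type I antiviral genes did, with medians of 0.32 and 0.65. The guanylate-binding proteins had medians of 0.17 and 0.27. In the MHC class II list 7 of 7 tested genes were higher in the gate, with medians of 0.23 and 0.12. Of 10 cytokine and feedback genes 2 were higher, with medians of -0.36 in both. Immediate early and heat shock genes, which mark handling stress, were also higher there in 9 of 12 tested, with 1 called. Their medians were 0.39 in the gate and 0.31 in low-Cxcl monocytes. The part of handling stress in the values between the libraries was not tested. Ly6c2 was at 2608 against 4323 CPM in the gate and at 2040 against 4474 outside it. Rsad2 lay in opposite directions, at 1475 against 649 CPM in the gate (-1.18, from -1.39 to -0.98) and at 126 against 197 in low-Cxcl monocytes (0.65, from 0.25 to 1.06), without the cell of 195 UMIs the first value was -0.56, and without cells that held lymphocyte genes it was 0.092. Its neighbor Cmpk2 had ratios of -0.49 in the gate and 0.76 in low-Cxcl monocytes, and Acod1 of -0.62 and 0.21, the latter with an interval from -0.51 to 0.95. Ctsl, a lysosomal protease, had a ratio of -1.09, but 1 cell held 50 of its 97 UMIs in the Irg1+/+ gate and without it the ratio was -0.17, and with at least 10 chemokine UMIs it was 0.12. Tumor RNA also differed between the libraries, as the melanoma genes above show, and its part in these values was not tested.

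**Figure D5:**
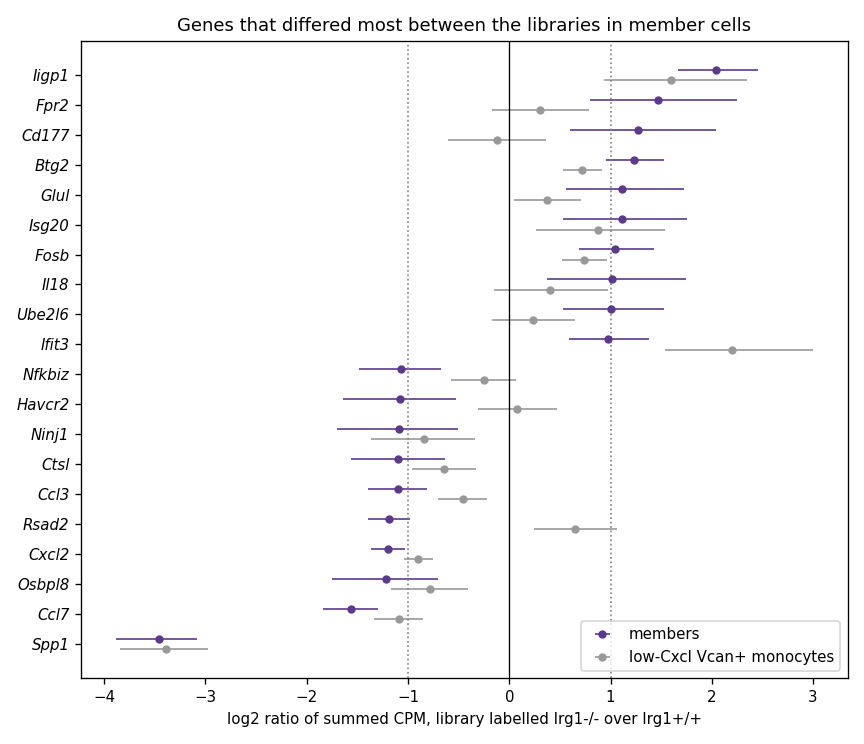
Log2 ratio of the library labelled Irg1-/- over the Irg1+/+ library for the 10 highest and 10 lowest genes, in the gated (member) cells and in low-Cxcl Vcan monocytes, with 95% counting intervals. Spp1 was low in both (-3.46 and -3.39), Iigp1 high in both (2.04 and 1.59), and Rsad2 stood at -1.18 and 0.65.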

How the data were processed

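Cells had been captured with BD Rhapsody. Per the methods, the authors used fastp for trimming, UMI-tools for barcodes and STAR for alignment, against the Ensembl mouse genome (release 100). The labels add CASAVA 1.8, Seurat and build GRCm38. The deposited files hold the raw UMI counts per gene and cell made by the authors, for 31253 gene identifiers (31205 symbols) and 1 library per genotype. UMIs of identifiers with the same symbol were added.

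The gate was applied to these counts, and UMIs were then summed over cells without mitochondrial genes and given as CPM. A log2 ratio compares CPM of 2 sums, after a pseudocount of 0.5 UMIs. Genes with at least 100 UMIs over the sums compared were used, a gene was called at a 2-fold ratio, between the gate and low-Cxcl monocytes in both libraries, and no p-value was computed. Intervals are exact Poisson for CPM, exact Clopper-Pearson for shares of cells and from the exact binomial split for ratios. Named genes are Acod1, the genes of the rule and the markers, the 15 highest and 15 lowest by the weaker library among genes with a UMI in at least 10% of gated cells of either library, the 10 highest and 10 lowest between the libraries, and examples from the lists. Genes named beyond these because a count of them was given were chosen after their values were seen. The members and the gene lists were chosen with earlier results of these data known. The list genes Mx1, Mx2, Gbp11, Gm12250, Ifi30, Cxcl11 and H2afz are not analysed here.

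Positions came from GENCODE M21 (GRCm38) and promoter windows from RefSeq (GRCm38.p6). Doublets were scored with Scrublet as in scanpy 1.11.5. Scripts ran under scipy 1.17.1, pandas 2.3.3, numpy 2.4.6 and matplotlib 3.10.9 (Python 3.11.15), and TMM factors came from edgeR 4.0.16 in R 4.3.3. The steps were tested on simulated counts. Alternatives were TMM scaling, the mean over cells, other limits on UMIs, pseudocount, mitochondrial share and chemokine counts, thinning, cells of 5000 to 20000 UMIs, and cells without high doublet scores or without lymphocyte genes. Leaving out the cell with most UMIs of a gene was added after the data were seen.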

Additional observations from a re-analysis of the deposited data

Results flagged for a closer look

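Rsad2 stood in opposite directions between the libraries in the chemokine-high and in the low-Cxcl Vcan monocytes. The log2 ratio of the library labelled Irg1-/- over the Irg1+/+ library was -1.18 in the gated cells and 0.65 in low-Cxcl monocytes. This difference was not tested, because each genotype had 1 library. In the Irg1+/+ gate 1 cell held 195 of 479 Rsad2 UMIs, and without it the ratio in the gated cells was -0.56. Without cells that held 2 or more UMIs of lymphocyte genes the ratio in the gated cells turned to 0.092.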

How the results depend on the processing

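No paired analysis was possible because each genotype had 1 library. Gated cells were a larger share in the library labelled Irg1-/- under each alternative run, but their share depends on the threshold. Of kept cells in the Irg1+/+ library they were 1.29% with at least 3 chemokine UMIs, 0.70% with at least 10, 1.38% with at least 0.05% of UMIs, 1.72% after thinning to 3000 UMIs and 1.51% without cells with lymphocyte genes. In the other library they were 1.05% with at least 10, 2.02% with at least 0.05% and 2.73% after thinning, where the difference was 1.01 points. Thinning lowers the C1q counts too, so that more cells pass the gate, 72 and 104 beside 63 and 90. It also leaves out cells under 3000 UMIs. Without cells with lymphocyte genes 27 and 31 gated cells were left. In both alternatives the share is taken of fewer kept cells, so it can be larger without more gated cells. Among Vcan monocytes the Irg1+/+ share was 37.9%, 20.6% and 40.7% with at least 3, at least 10 and at least 0.05%, and the other was 42.4%, 23.7% and 45.5%, and 28.2% without cells with lymphocyte genes.

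The number of higher genes was 88 of 7664 tested with at least 20 UMIs and 33 of 1499 with at least 300. It was 30 of 1802 without cells with lymphocyte genes, beside 54 of 3709 as reported. Of the same numbers tested, lower genes were 125 and 1 with at least 20 and 300 UMIs and 4 without cells with lymphocyte genes. In cells of 5000 to 20000 UMIs they were 4 of 2496. Of 3709 tested, they were 2 with a pseudocount of 5, 1 with at least 3 chemokine UMIs and 5 with at least 0.05%. Without the top cell of each gene they were 15, beside 9 as reported. Genes higher in the library labelled Irg1-/- numbered 138 of 5138 and 3 of 516 tested with at least 20 and 300 UMIs. Genes lower there numbered 190 and 5. With at least 10 chemokine UMIs 5 of 1152 were higher and 6 lower. Of 1630 tested, 4 were higher with the larger pseudocount and 14 without the top cell. With the mean over cells 6 were lower, beside 9 higher and 11 lower as reported. Other alternatives stayed within 1.5 times.

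Directions turned in a few named genes, and the cause was not tested. With at least 3 chemokine UMIs the Irg1+/+ log2 ratios of Lactb, P2ry10 and Tbc1d4 to low-Cxcl monocytes were 0.17, 0.63 and 1.09. Without cells with lymphocyte genes Smarca2 was at 0.073 there and Rsad2 at 0.092 between the libraries. Ctsl was at 0.12 between the libraries with at least 10 chemokine UMIs. TMM scaling moved the median log2 ratio of all genes to the gate from -0.068 to 0.015 and from -0.081 to 0.031. With 63 and 90 gated cells, a gene of few UMIs can be decided by 1 cell.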
